A study of Homo sapiens with 6 samples.

Results

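ZNF207, also called BuGZ, was examined together with 7 genes whose proteins work with it or like it at mitosis: BUB3, BUB1, BUB1B, RAE1, NUP98, AURKA and TPX2. These 7 are called its partners below for short, which does not mean that each binds ZNF207. The members were the rows of the deposited table whose gene name equalled one of these 8 symbols, and each symbol had a row, 8 of 60569 gene names in all. All 8 were among the 13185 genes that reached 1 FPKM in at least 3 libraries and were tested. FPKM is a fragment number divided by transcript length and by the size of the library, so levels of different genes can be set side by side.

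The cells were MDA-MB-453, a human breast cancer line in long-standing laboratory use, and their RNA was sequenced after transfection with a ZNF207 overexpression construct (3 libraries) or a control vector (3 libraries). The design text describes the libraries of a group as separate biological replicates. The construct's promoter, its isoform and how long it was expressed are not stated in the labels. Both groups were transfected, and untransfected cells were not analysed here.

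In mitosis the checkpoint holds back anaphase until every chromosome is attached to spindle microtubules. BUB3, a ring-shaped WD40 protein, brings the kinases BUB1 and BUBR1 (the product of BUB1B) to kinetochores, and it does so by gripping a short stretch in each of them called the GLEBS motif. ZNF207 contacts microtubules through its zinc finger region and has a GLEBS motif of its own, through which it binds BUB3 and helps to load it at kinetochores. RAE1, a close relative of BUB3, grips the GLEBS motif of the nuclear pore protein NUP98 in the same way and serves in mRNA export and spindle assembly. Aurora A, the product of AURKA, is a spindle kinase that TPX2 activates, and ZNF207 is known to assist that activation on the spindle.

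The coding bases around the centre of the motif are shown for the 4 members that carry it, since the motif is what ZNF207 shares with the other proteins that BUB3 or RAE1 grips. Each stretch is 90 bases long, 5′ to 3′ on the coding strand, read from the GENCODE release 29 transcript (GRCh38) of the main isoform, and the capitals mark the codons of a glutamate pair that lies in the BUB3 or RAE1 contact.
ZNF207: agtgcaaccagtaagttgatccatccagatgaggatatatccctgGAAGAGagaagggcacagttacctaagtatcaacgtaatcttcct
BUB1: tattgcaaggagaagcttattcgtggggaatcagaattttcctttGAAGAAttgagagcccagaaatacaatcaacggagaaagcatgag
BUB1B: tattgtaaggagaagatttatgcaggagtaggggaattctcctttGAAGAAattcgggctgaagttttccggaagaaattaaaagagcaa
NUP98: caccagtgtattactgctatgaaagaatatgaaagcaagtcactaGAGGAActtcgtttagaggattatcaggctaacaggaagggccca

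The pair falls at codons 373 and 374 of 478 in ZNF207, 252 and 253 of 1085 in BUB1, 413 and 414 of 1050 in BUB1B and 201 and 202 of 1800 in NUP98. The ZNF207 stretch joins exons 9 and 10 of 11 on the plus strand (chr17:32367970-32369339, with the intron between), and the NUP98 stretch joins exons 6 and 7 of 33 on the minus strand (chr11:3771887-3773679, likewise). The BUB1 stretch lies in exon 8 of 25 on the minus strand (chr2:110667528-110667617), and the BUB1B stretch in exon 9 of 23 on the plus strand (chr15:40196678-40196767). In all 4 a serine, then leucine or phenylalanine, precedes the pair, and an arginine follows after any other residue. That pattern was written after these stretches had been read, and it occurred in 62 of 19516 human coding genes (0.318%). BUB1 and BUB1B were the most alike, with 51 of 90 bases identical, and ZNF207 shared 41 bases with BUB1, 36 with BUB1B and 34 with NUP98. Of the 10 annotated coding transcripts of ZNF207, 5 full-length ones held the pattern. These 5 ranged in length from 1905 to 13781 bases, so the FPKM of ZNF207 also depends on which of them the reads were assigned to.

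The libraries held between 13061 and 13231 genes at 1 FPKM or more. The line's epithelial and luminal markers were present: 10 of 10 were tested, with a summed level between 7131 and 7166 FPKM in the construct libraries and between 7410 and 7757 FPKM in the controls. Of these, KRT19 stood at 1571 ± 48.5 FPKM in construct libraries and 1833 ± 112 FPKM in controls (adjusted p = 0.196 from limma). FOXA1 stood at 152 ± 3.75 FPKM in construct libraries and 139 ± 9.09 FPKM in controls (adjusted p = 0.448 from limma). KRT19 was lower and FOXA1 higher in every construct library, and neither passed at an adjusted p under 0.05. The oestrogen receptor gene ESR1, for which the line is usually described as negative, stood at 19.8, 25.5 and 32.2 FPKM in the construct libraries, against 18.4, 16.9 and 20.1 FPKM in the controls. Its log2 change was 0.44 (adjusted p = 0.269 from limma), and the groups overlapped. Leukocyte markers summed to at most 0.816 FPKM in the construct libraries and 0.910 FPKM in the controls, and endothelial markers to at most 0.577 FPKM in the construct libraries and 0.503 FPKM in the controls. Of 6 fibroblast markers 1 was tested, COL1A1, at 9.09 ± 1.01 FPKM in construct libraries and 10.2 ± 1.25 FPKM in controls (SD, n = 3 each).

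ZNF207 was the member that rose, and none of its 7 partners passed the test. Its level was 885, 786 and 750.0 FPKM in the construct libraries, against 69.2, 67.0 and 63.7 FPKM in the control libraries. Every construct library stood far above every control. On the log2(FPKM + 1) scale it differed by 3.58 (SE 0.07, adjusted p = 4.03e-09 from limma), an 11.9-fold change with a 95% interval of 3.42 to 3.73 on the log2 scale, and the exact two-sided permutation test gave p = 0.1, as low as 3 libraries against 3 can go. Among all genes of a library, ZNF207 ranked between 86 and 119 from the top in the construct libraries and between 1497 and 1728 in the controls. Of all tested genes, 0.212% passed the same test in either direction, 0.0531% upwards and 0.159% downwards. The 1 member of 8 that passed was ZNF207, the gene that the construct carries, and none of its 7 partners did. Transcripts of the cell's own gene and of the construct cannot be told apart in these gene-level values, and in bulk RNA neither can more expressing cells and more RNA per cell.

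**Figure D1:**
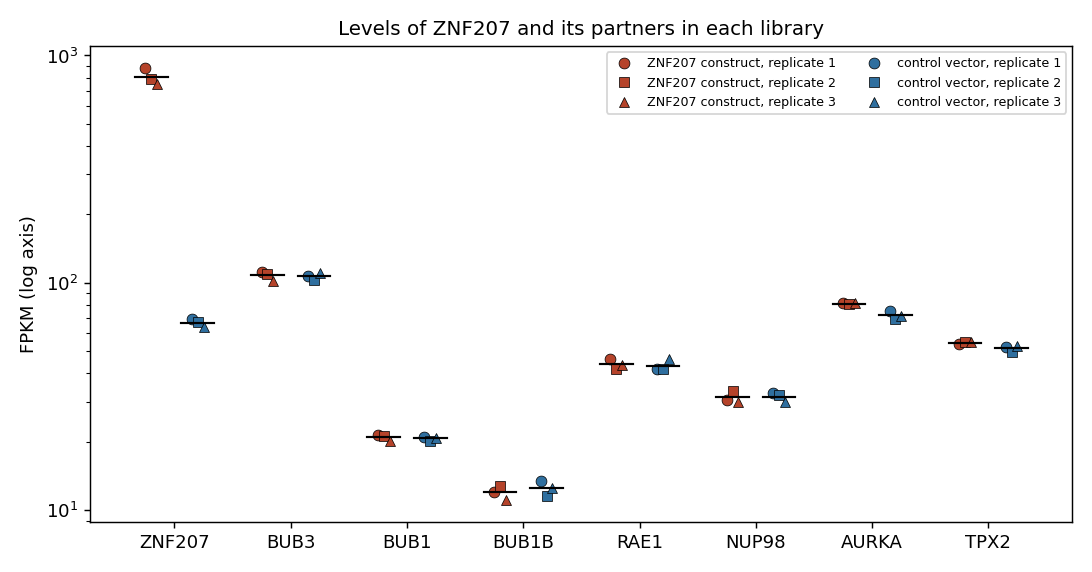
FPKM on a log axis of the 8 members in each of 6 libraries, with the ZNF207 construct to the left of the control vector for each gene, replicates as symbols and group means as bars. ZNF207 lies between 750.0 and 885 FPKM with the construct and between 63.7 and 69.2 FPKM with the control vector, while the 2 groups of the other members lie at nearly the same height.

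BUB3, the partner that ZNF207 binds and protects, did not pass the test. It stood at 112, 109.5 and 102 FPKM in the construct libraries, against 107, 103 and 110.1 FPKM in the controls. The groups overlapped, with the lowest library of all in the construct group and the highest there too. Its log2 change of 0.01 (SE 0.06) had an adjusted p of 0.951 from limma, and its 95% interval ran from -7.44% to 10.1%, as a change in FPKM + 1. Changes in BUB3 message within that interval remain compatible with these values, and protein was not measured. The interval is not a limit of detection, since AURKA, 12.6% higher in the means, did not pass either.

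The checkpoint kinases, which bind BUB3 through the motif shown above, also failed to pass the test. BUB1, the kinase that marks centromeric histone H2A, stood at 21.4, 21.2 and 20.1 FPKM in construct libraries, against 21.1, 20.1 and 20.9 FPKM in controls. Its log2 change was 0.01 (SE 0.06, adjusted p = 0.955 from limma, 95% interval -8.64% to 11.6%). BUB1B, which encodes the BUBR1 subunit of the mitotic checkpoint complex, stood at 12.1, 12.8 and 11.1 FPKM in construct libraries, against 13.4, 11.5 and 12.5 FPKM in controls. Its log2 change was -0.05 (SE 0.09, adjusted p = 0.855 from limma, 95% interval -15.9% to 10.4%). In both kinases the groups overlapped, and BUB1B had the widest interval of the 8 members in percent among those that did not pass.

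The second motif pair, the mRNA export factors RAE1 and NUP98, did not pass the test either. RAE1 stood at 46.1, 41.7 and 43.4 FPKM in construct libraries, against 41.9, 41.7 and 46.0 FPKM in controls (log2 change 0.02, SE 0.07, limma adjusted p = 0.945, 95% interval -8.53% to 12.0%). NUP98, whose transcript also encodes the scaffold nucleoporin NUP96, stood at 30.6, 33.3 and 30.0 FPKM in construct libraries, against 32.9, 32.0 and 29.9 FPKM in controls (log2 change -0.01, SE 0.07, limma adjusted p = 0.958, 95% interval -10.8% to 9.98%). Each gene's library values interleaved between the groups. The ratio of RAE1 to NUP98 was 1.401 ± 0.134 in construct libraries and 1.37 ± 0.145 in controls (SD, n = 3 each; exact two-sided permutation p = 1).

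AURKA and TPX2 were the partners whose groups did not overlap. AURKA stood at 81.3, 80.5 and 81.2 FPKM in the construct libraries, against 75.1, 69.0 and 71.6 FPKM in the controls. All 3 construct libraries were higher than all 3 controls, by 12.6% in the means, and they lay closer together: the coefficient of variation was 0.522% with the construct and 4.27% with the control vector. The log2 change was 0.17 (SE 0.05, 95% interval 0.05 to 0.29), with an unadjusted p of 0.0095 and an adjusted p of 0.236 from limma, so it did not pass. TPX2, the microtubule-binding activator of Aurora A, stood at 53.9, 55.0 and 54.6 FPKM in the construct libraries, against 52.4, 49.4 and 52.8 FPKM in the controls. Again the construct libraries were the higher ones, by 5.73% in the means, but the log2 change of 0.08 (SE 0.05, limma adjusted p = 0.602) had a 95% interval that included 0 (-0.04 to 0.20). Including ZNF207, 3 of the 8 members had non-overlapping groups with the construct higher, and 0 had them with the construct lower. Such separation was common among all tested genes, at 7.61% higher and 10.4% lower.

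**Figure D2:**
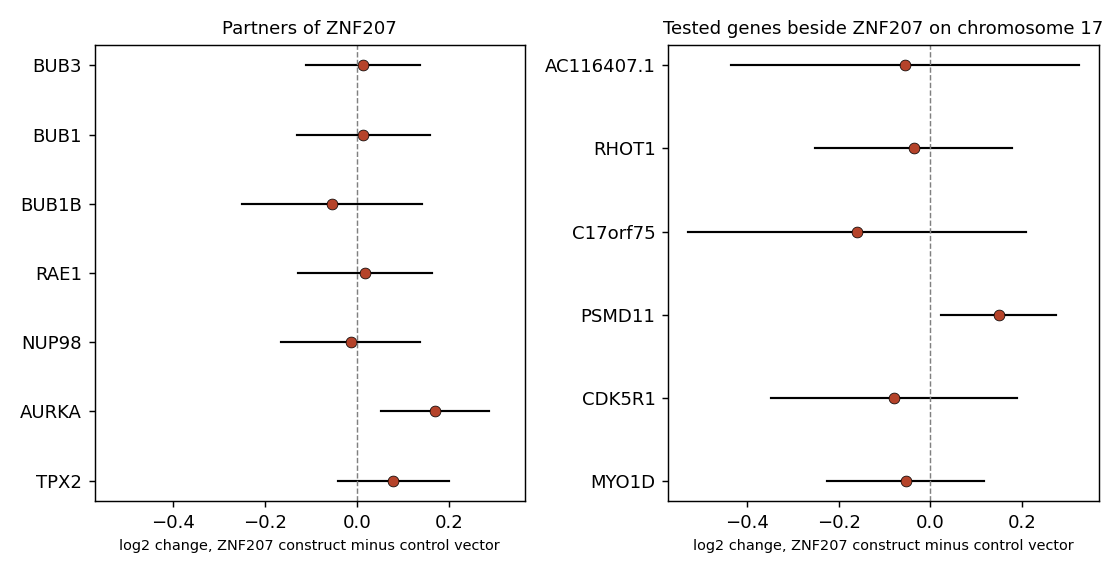
Log2 change, ZNF207 construct minus control vector, on the log2(FPKM + 1) scale for the 7 partners (left) and for the 3 nearest tested genes on each side of ZNF207 whose listed and annotated positions overlap (right); points are limma estimates and lines their 95% intervals. AURKA, at 0.17, and PSMD11, at 0.15, are the genes whose interval lies wholly above 0, and neither passes after adjustment over all tested genes.

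The order of the levels placed ZNF207 above all of its partners in the construct libraries and among them in the controls. In construct libraries ZNF207 came first at 807 ± 69.9 FPKM and BUB3 next at 108 ± 5.31 FPKM (SD, n = 3 each), followed by AURKA, TPX2, RAE1, NUP98, BUB1 and BUB1B with no overlap between neighbours. In control libraries BUB3 came first at 107 ± 3.34 FPKM, followed by AURKA at 71.9 ± 3.07 and ZNF207 at 66.6 ± 2.78 FPKM (SD, n = 3 each). AURKA and ZNF207 were close neighbours there: the lowest AURKA value was 69.0 FPKM and the highest ZNF207 value 69.2 FPKM. TPX2 at 51.6 ± 1.85 FPKM and RAE1, NUP98, BUB1 and BUB1B came after them in the same order as with the construct, again with no overlap between neighbours, down to 12.5 ± 0.915 FPKM for BUB1B.

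By FPKM, ZNF207 stood several times above BUB3 in the construct libraries and below it in the controls. The ratio of ZNF207 to BUB3 was 7.89, 7.17 and 7.36 in the construct libraries, against 0.648, 0.648 and 0.578 in the controls. The log2 ratio differed by 3.58 between the groups, an 11.98-fold change, with SDs of 0.07 among construct libraries and 0.09 among controls. ZNF207 to AURKA was 9.96 ± 0.846 in construct libraries and 0.927 ± 0.0413 in controls, and ZNF207 to TPX2 was 14.8 ± 1.42 in construct libraries and 1.29 ± 0.0784 in controls (SD, n = 3 each). Against RAE1 the ratio was 18.4 ± 1.00 in construct libraries and 1.55 ± 0.144 in controls. Against the other carriers of the motif, ZNF207 stood at 25.8 ± 2.80 times NUP98 in construct libraries and 2.11 ± 0.0169 times in controls, at 38.6 ± 2.44 times BUB1 with the construct and 3.22 ± 0.150 times in controls, and at 67.4 ± 5.96 times BUB1B with the construct and 5.35 ± 0.393 times in controls. All 7 ratios were higher in every construct library than in any control, each with an exact two-sided permutation p of 0.1, the smallest possible. The 7 share ZNF207 as numerator, so they largely restate its own rise and are not separate results. The scaling of a library cancels in such a ratio, so these values do not depend on how the libraries were scaled. The transcript length by which each FPKM is divided does not cancel, and the construct's isoform is not stated.

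**Figure D3:**
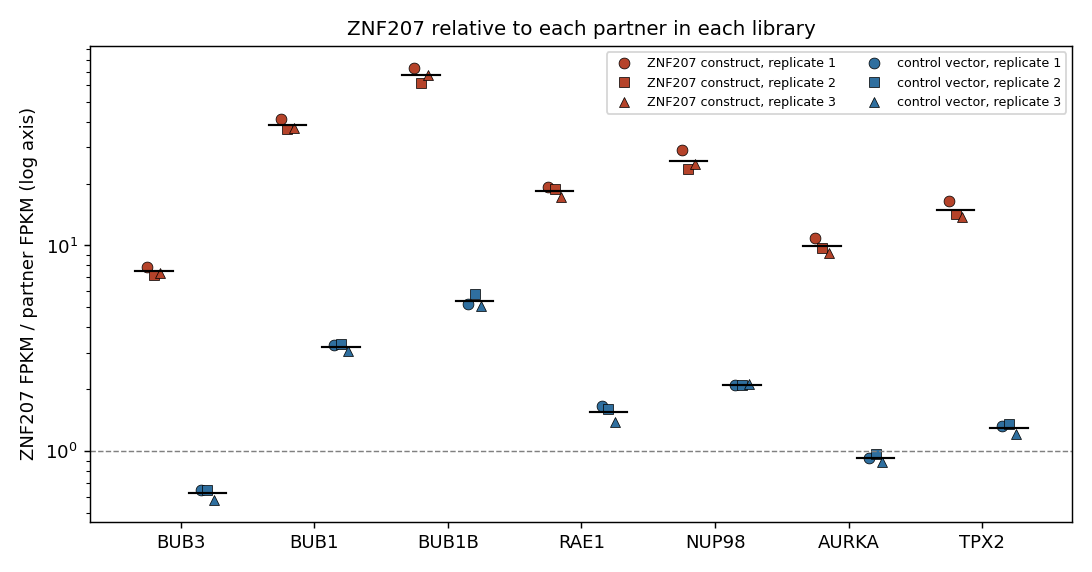
Ratio of ZNF207 FPKM to the FPKM of each of the 7 partners in each library on a log axis, with the ZNF207 construct to the left of the control vector, group means as bars and a dashed line where the levels are equal. With the construct ZNF207 lies above all 7, and with the control vector it lies below BUB3 (0.578 to 0.648) and AURKA and above the rest.

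The summed message of the 3 proteins that bind BUB3 through the motif was set against BUB3 itself, a sum chosen after the values were seen. ZNF207, BUB1 and BUB1B together had 8.19, 7.48 and 7.67 times the FPKM of BUB3 in the construct libraries, against 0.970, 0.954 and 0.882 times in the controls. ZNF207 made up 96.4%, 95.8% and 96.0% of that sum in the construct libraries, against 66.8%, 67.9% and 65.6% in the controls. The kinases alone stood at 0.298, 0.311 and 0.306 of BUB3 in construct libraries, against 0.322, 0.306 and 0.303 in controls, and these groups overlapped. The ratio of BUB3 to BUB1 was likewise 5.16 ± 0.0824 in construct libraries and 5.17 ± 0.105 in controls (SD, n = 3 each; exact two-sided permutation p = 1). The ratio of TPX2 to AURKA was 0.663, 0.683 and 0.673 in construct libraries, against 0.698, 0.717 and 0.738 in controls. It was lower in every construct library, since AURKA had the larger difference of the pair, with an exact two-sided permutation p of 0.1.

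Other genes of these pathways were counted in lists from which the 8 members were left out, with a median log2 change of -0.01 over all 13185 tested genes. Before adjustment, 5.08% of all tested genes were higher and 7.03% lower at a limma p under 0.05, and the counts at that level in each list are read against these shares. Of 22 spindle checkpoint and kinetochore genes, 0 passed the test by limma (limma p under 0.05 before adjustment: 0 higher, 2 lower), and their median log2 change was -0.01. The lowest p belonged to NUF2, a subunit of the NDC80 complex that holds microtubules, at 14.7 ± 0.688 FPKM in construct libraries and 17.2 ± 1.00 FPKM in controls (adjusted p = 0.294 from limma). MAD1L1, which anchors MAD2 at kinetochores, stood at 8.36 ± 1.78 FPKM in construct libraries and 10.9 ± 1.97 FPKM in controls (adjusted p = 0.394 from limma, groups overlapping). CDC20, the target of the checkpoint complex, was chosen after its values were seen. It stood at 35.0, 33.8 and 33.3 FPKM in construct libraries, against 31.6, 27.6 and 32.4 FPKM in controls (log2 change 0.16, adjusted p = 0.427 from limma). Of the 22 genes it alone had every construct library above every control, against 7.61% of all tested genes. Another 5 had every construct library below every control, against 10.4% of all tested genes.

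Of 18 genes of the anaphase-promoting complex and its regulators, the ubiquitin ligase that the checkpoint restrains, 0 passed (limma p under 0.05 before adjustment: 2 higher, 2 lower), with a median of -0.02. FBXO5, its inhibitor EMI1, stood at 18.0 ± 0.0157 FPKM in construct libraries and 21.2 ± 0.794 FPKM in controls (adjusted p = 0.207 from limma). The core subunit ANAPC11 stood at 95.3 ± 5.58 FPKM in construct libraries and 109.7 ± 9.51 FPKM in controls (adjusted p = 0.31 from limma). In both genes every construct library was the lower one.

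Of 26 genes that act with Aurora A or in spindle assembly, 0 passed (limma p under 0.05 before adjustment: 0 higher, 1 lower), and the median was 0.00. PLK1, the kinase that Aurora A switches on at mitotic entry, stood at 75.3, 73.1 and 69.7 FPKM in construct libraries, against 68.9, 64.1 and 67.1 FPKM in controls (log2 change 0.12, adjusted p = 0.422 from limma). HAUS8, the augmin subunit that contacts microtubules, stood at 8.75 ± 0.130 FPKM in construct libraries and 11.4 ± 0.876 FPKM in controls (log2 change -0.34, adjusted p = 0.14 from limma). PLK1 was thus higher and HAUS8 lower in every construct library, and neither passed.

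Around NUP98 and RAE1, 0 of 33 nuclear pore and mRNA export genes passed (limma p under 0.05 before adjustment: 0 higher, 3 lower), with a median of -0.02. NXT1, the cofactor of the export receptor NXF1, stood at 25.0 ± 1.57 FPKM in construct libraries and 29.1 ± 1.81 FPKM in controls (adjusted p = 0.286 from limma). NUP210, a membrane ring nucleoporin, stood at 44.0 ± 1.57 FPKM in construct libraries and 48.7 ± 1.84 FPKM in controls (adjusted p = 0.354 from limma). Both had every construct library below every control.

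AURKA, TPX2, BUB1 and BUB1B are transcribed mainly in G2 and mitosis, so genes of the cell cycle phases were read beside them. Of 24 G2/M genes, 0 passed (limma p under 0.05 before adjustment: 1 higher, 2 lower), with 15 estimates above 0 and a median of 0.03. The transcription factor MYBL2 stood at 53.0 ± 1.18 FPKM in construct libraries and 65.2 ± 6.55 FPKM in controls (adjusted p = 0.158 from limma; without control replicate 1 it passed, at an adjusted p of 0.0486), and the CDK subunit CKS1B at 142 ± 6.99 FPKM in construct libraries and 156 ± 3.72 FPKM in controls (adjusted p = 0.348 from limma). Of 20 G1/S and replication genes, 0 passed (limma p under 0.05 before adjustment: 0 higher, 12 lower), but all 20 estimates were below 0, with a median of -0.15, and 12 had every construct library below every control, against 10.4% of all tested genes. The replicative helicase factor GINS2 stood at 17.4 ± 0.788 FPKM in construct libraries and 21.4 ± 1.07 FPKM in controls (adjusted p = 0.145 from limma), and the clamp loader subunit RFC4 at 34.5 ± 2.20 FPKM in construct libraries and 41.5 ± 1.12 FPKM in controls (adjusted p = 0.137 from limma). The part of cell cycle phase in the values of AURKA and TPX2 was not tested.

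**Figure D4:**
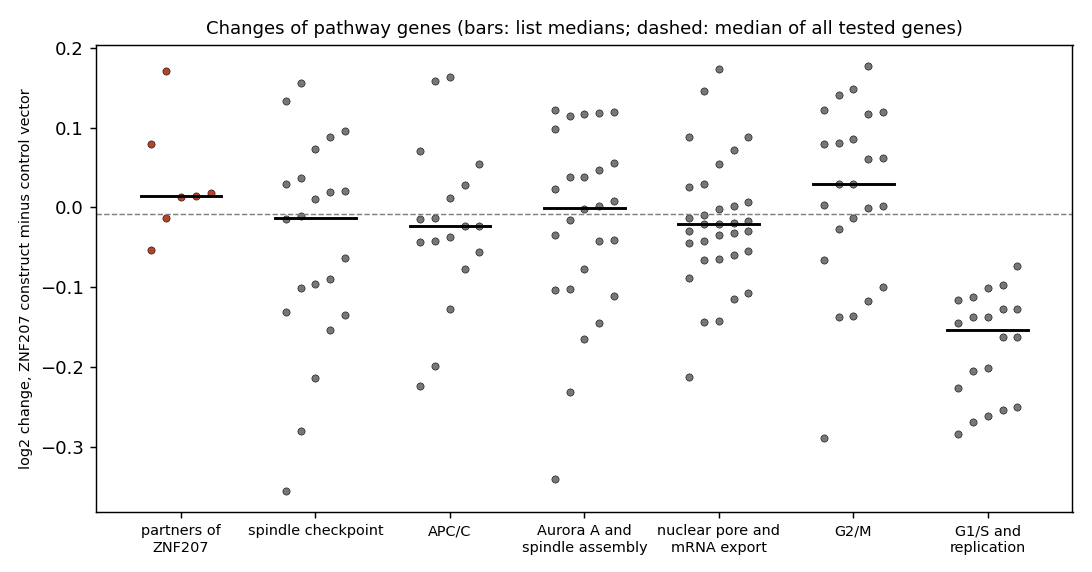
Log2 change, ZNF207 construct minus control vector, of the 7 partners and of the tested genes of 6 pathway lists; each point is a gene, bars are list medians and the dashed line is the median of all tested genes. The medians of 6 groups lie between -0.02 and 0.03, and that of the G1/S and replication list is at -0.15.

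Of the tested genes whose listed and annotated positions overlap, the 3 nearest to ZNF207 on each side did not pass the test; the row AC005899.5, whose positions differ, is described after them. ZNF207 (chromosome 17, 32350117 to 32381886, plus strand, GRCh38) lies head to head with C17orf75 (32324565 to 32350023, minus strand), which shares its listed locus. C17orf75 stood at 8.79, 12.6 and 14.9 FPKM in construct libraries, against 11.9, 12.9 and 15.3 FPKM in controls (log2 change -0.16, limma adjusted p = 0.744). RHOT1, which encodes the mitochondrial transport protein MIRO1, stood at 21.5 ± 2.19 FPKM in construct libraries and 22.1 ± 2.17 FPKM in controls (adjusted p = 0.917 from limma), and AC116407.1, annotated as antisense beside its start, at 1.04 ± 0.214 FPKM in construct libraries and 1.12 ± 0.248 FPKM in controls (adjusted p = 0.932 from limma). On the other side PSMD11, a proteasome lid subunit, stood at 56.9, 58.8 and 53.6 FPKM in construct libraries, against 50.7, 50.1 and 51.6 FPKM in controls (log2 change 0.15, limma adjusted p = 0.327). CDK5R1, the activator p35 of CDK5, stood at 2.54 ± 0.116 FPKM in construct libraries and 2.74 ± 0.186 FPKM in controls (adjusted p = 0.842 from limma), and the myosin gene MYO1D at 28.0 ± 1.46 FPKM in construct libraries and 29.2 ± 2.39 FPKM in controls (adjusted p = 0.828 from limma). Of these 6 genes, PSMD11 alone had every construct library above every control.

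Beside ZNF207, 7 other rows of the table carry the same listed locus, and 1 of them, AC005899.5, had values in the construct libraries alone. It was listed at 33.0, 9.19 and 43.1 FPKM in the construct libraries and at 0 in all 3 controls (adjusted p = 0.00384 from limma). The row met the filter of 1 FPKM in 3 libraries only through the construct group, so it had to differ once tested, and with any construct library left out it was not tested. These values were 3.73%, 1.17% and 5.75% of ZNF207 in the same libraries, and the row was highest in the library where ZNF207 was lowest. The call was lost without a variance trend (adjusted p = 0.0749), with a robust variance model (0.0695) and without a filter (0.139). GENCODE release 29 places a gene of this name outside the listed locus, between ZNF207 and PSMD11 (32411217 to 32412420, plus strand), so the transcript behind the row could not be matched by name. In that release a processed transcript on the same strand, AC005899.4, overlaps the start of ZNF207, and 466 of its 561 exon bases are also exon bases of ZNF207. The deposited row named AC005899.4, at the same listed locus, was at 0 in all 6 libraries. How reads were divided between overlapping genes is not stated in the labels.

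Possible copies of the partners were at or near 0. The processed pseudogenes BUB3P1 and BUB1P1 were listed at 0 in all 6 libraries. AURKAP1 reached 0.429 FPKM and AURKAP2 0.473 FPKM at most, against at least 69.0 FPKM for AURKA. BUB1B shares its listed locus with 7 other rows, RAE1 with 4 and NUP98 with 4, and BUB3, BUB1, AURKA and TPX2 share theirs with none.

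The genes whose profiles were most like that of ZNF207 over the 6 libraries, among tested genes with a mean of 5 FPKM or more, were TAP2, ABCC5 and WARS1, with Pearson's r on log2(FPKM + 1) of 0.99 for each. TAP2, a subunit of the peptide transporter of antigen presentation, stood at 79.8 ± 1.15 FPKM in construct libraries and 67.3 ± 0.494 FPKM in controls (adjusted p = 0.0883 from limma). ABCC5 stood at 97.7 ± 0.946 FPKM in construct libraries and 86.0 ± 0.0503 FPKM in controls (adjusted p = 0.154 from limma). Neither TAP2 nor ABCC5 passed the test. For AURKA the most alike were UBE2L6, the conjugating enzyme of ISG15 (r = 1.00), C11orf54 (0.99) and CRYBG1 (0.99). C11orf54 (adjusted p = 0.208 from limma) and CRYBG1 (0.0844) did not pass the test. UBE2L6 stood at 154, 154 and 154 FPKM in construct libraries, against 137, 122 and 128 FPKM in controls (log2 change 0.26, adjusted p = 0.0985 from limma). Since each group is a cluster of 3 libraries, such an r mostly reflects the distance between the groups, and it is given as a measure of likeness only. WARS1 passed the test with a filter at 5 FPKM (adjusted p = 0.0488) or quantile scaling (0.0438) and not in the fit reported (adjusted p = 0.0672 from limma).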

How the data were processed

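The deposited table holds FPKM values, 1 column per library, made by the authors and scaled by transcript length and mapped fragments. The submitters' processing notes name hg38 and the tools Bowtie2, RSEM (1.3.1) and DESeq2 (1.4.5), without their roles; annotation release: not given in the sources used here. Columns named NC were read as control vector and those named 207 as ZNF207 construct, with the last digit as the replicate number of the sample title. Of several rows with one name, that with the greatest mean was used. FPKM are not counts and read depth is unknown: no more than 0.202% of 1981 genes at low values had the same ratio between any libraries, so no whole reads were recovered and no count test was run. Precision therefore rests on 3 libraries per group.

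log2(FPKM + 1) of the 13185 genes with 1 FPKM or more in at least 3 libraries was compared with limma 3.58.1 in R 4.3.3 (mean-variance trend, two-sided, Benjamini-Hochberg adjustment over all tested genes, threshold 0.05); every adjusted p is from this test. The fit was checked on simulated data in which genes varied independently, so that check does not give the rate of false calls in these libraries. Intervals in percent were taken from the limma fit and are changes in FPKM + 1, while percent differences between means are of FPKM. Ratios were tested with an exact two-sided permutation test over libraries, for 10 pairs in all. The deviations of same-numbered libraries from their group means correlated at 0.14, 0.01 and 0.17, and those of differently numbered libraries at -0.21 to 0.07. These values do not settle whether the numbers pair the libraries. The labels do not state that the numbers mark shared cultures or days, so the main fit held no block for them. Sequences and coordinates are from GENCODE release 29 (GRCh38). Named genes were the members, the rows at the ZNF207 locus, 3 tested neighbours on each side, the members of each list with the smallest p, and the 3 profiles most like ZNF207 and AURKA. ESR1, CDC20 and the pseudogenes were named outside this rule. Members and lists were chosen with earlier results of these data known. Alternatives were another pseudocount, filter, scaling or variance model, a block for the replicate number, and leaving out each library; for genes other than the members they were added after seeing the data.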

Additional observations from a re-analysis of the deposited data

How the results depend on the processing

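ZNF207 passed under all 15 alternatives, with log2 changes from 3.51 to 3.63, and none of its 7 partners passed under any. Over the same alternatives AURKA ran from 0.14 to 0.20 (adjusted p 0.119 to 0.575, limma) and TPX2 from 0.05 to 0.10 (0.42 to 0.882). Estimates near 0 changed sign: NUP98 was 0.0049 with TPM scaling, and leaving out 1 library gave -0.058 to 0.015 for NUP98, -0.015 to 0.053 for BUB3, -0.0055 to 0.042 for BUB1 and -0.021 to 0.063 for RAE1. Among the neighbours it gave -0.13 to 0.035 for AC116407.1, -0.31 to 0.035 for C17orf75 and -0.12 to 0.027 for RHOT1. The 10 ratios kept within 1 SD of their values. Of them, 2 log2 ratio changes near 0 also changed sign when 1 library was left out. RAE1 to NUP98 ran from -0.024 to 0.12 and BUB3 to BUB1 from -0.015 to 0.014. Of all tested genes 28 changed (7 higher, 21 lower). This count was 4 (3 higher, 1 lower) with no filter, 64 (16 and 48) with a filter at 5 FPKM, 5 (2 and 3) with no variance trend, 17 (6 and 11) with median-of-ratios scaling, and 13 and 12 were lower with TPM and quantile scaling. Leaving out 1 library, and so testing fewer samples, gave 4 to 36 (1 to 10 higher, 3 to 26 lower); for the other settings the cause was not tested. With the replicate block 145 genes changed (56 higher, 89 lower), no partner passed, and WARS1 (adjusted p = 0.0283) and CRYBG1 (0.0426) did; since the numbers were not shown to pair the libraries, this is no measure of strength.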
